A study of Mus musculus with 8 samples.

Results

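The 9 genes described here write, erase and read DNA methylation: Dnmt1, Dnmt3a, Dnmt3b, Uhrf1, Tet1, Tet2, Tet3, Tdg and Mbd2. They were chosen by name, not by their values. All 9 were found in the count table of 57180 genes and among the 15660 genes that passed a filter on low counts. RNA came from mouse muscle stem cells, the cells that rebuild muscle fibres after injury, sorted fresh from tissue. The 4 control libraries are titled WT (replicates 2, 5, 7 and 8). The 4 other libraries are titled RhoA het (replicates 5, 6, 7 and 8), carry the genotype tag RhoA knockdown, and come from animals that the design text names SC-RhoAfl/+, with a floxed allele of the small GTPase RhoA beside an intact one. The driver that recombines the allele, the age of the animals and any pooling are not given in the sources used here, and the labels do not say that each library is a separate animal. P-values therefore measure the spread between these libraries, which may in part be technical.

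DNA methylation in mammals sits mostly on cytosines of CpG pairs. DNMT3A and DNMT3B place new methyl groups, while DNMT1 copies the pattern onto the daughter strand after replication, guided there by UHRF1, which binds CpGs methylated on 1 strand. TET1, TET2 and TET3 oxidise the methyl group, TDG cuts out the oxidised bases so that repair can restore cytosine, and MBD2 binds methylated CpGs and brings in the NuRD corepressor. Because maintenance follows replication, Dnmt1 and Uhrf1 are known to be expressed most in cycling cells. Muscle stem cells in resting muscle are mostly quiescent.

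Promoter sequences were searched for the E2F site, the element through which E2F factors switch on many replication genes, because Dnmt1 and Uhrf1 are the genes of this set tied to cycling. The letters searched on both strands were TTTCCCGC, TTTCGCGC, TTTGCCGC and TTTGGCGC, in windows of 300 bases (250 before to 50 after each RefSeq start, build GRCm38.p6). Of the 8 genes with a window in the table, Dnmt1 and Uhrf1 held a match and the other 6 did not. Mbd2 has no entry. The 3 matches follow, each written 5′ to 3′ on the strand of its gene, with the matching letters in capitals.
Dnmt1, chr9:20952824-20952853, minus strand: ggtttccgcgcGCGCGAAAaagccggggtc
Dnmt1, chr9:20952574-20952601, minus strand: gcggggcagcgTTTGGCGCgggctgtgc
Uhrf1, chr17:56304117-56304146, plus strand: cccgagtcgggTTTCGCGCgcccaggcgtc
The first of these is TTTCGCGC read on the opposite strand, with its first letter at -219 from the start. The second lies downstream of that same start, at 33, and the Uhrf1 match lies at -185. Dnmt1 has 3 windows and Uhrf1 has 2, and in each gene only 1 window held a match. Among all 27025 genes with a window, 2.6% held one. Every sequence searched contains a CpG, and that share is not matched for CpG content. Windows held 2 to 33 CpGs in Dnmt1, 12 to 33 in Uhrf1 and 17 to 57 in the genes without a match, against a median of 7 over all windows. For comparison, 8 of 23 S phase genes with a window (34.8%) and 1 of 16 G2 and M phase genes (6.25%) did. A match of letters is a description and not evidence of binding.

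Transcript levels were compared between genes on the TPM scale, which divides by gene length. Mbd2 had the highest mean over the 8 libraries, at 21.0 ± 2.52 TPM (SD, n = 8), and Tet1 the lowest, at 1.17 ± 0.666 TPM. Between them came Tdg (19.6 ± 5.89 TPM), Tet2 (16.5 ± 2.72 TPM), Dnmt1 (10.6 ± 3.35 TPM), Dnmt3a (9.67 ± 2.32 TPM), Tet3 (5.35 ± 1.56 TPM), Uhrf1 (4.77 ± 5.15 TPM) and Dnmt3b (2.93 ± 0.506 TPM). Each gene was set against its neighbour in this order with a two-sided exact permutation test that flips the sign of the paired log2 differences. The steps from Tet2 to Dnmt1, from Dnmt3a to Tet3 and from Dnmt3b to Tet1 held in 8 of 8 libraries. Each had an exact permutation p of 0.00781, the smallest that 8 libraries allow, and 0.0208 after Benjamini-Hochberg adjustment over the 8 steps. The other 5 steps did not pass (adjusted exact permutation p of 0.203 to 0.938). The order of Mbd2 against Tdg, of Tdg against Tet2 and of Dnmt1 against Dnmt3a was thus not resolved, and pairs that are not neighbours were not tested. Uhrf1 lay above Dnmt3b in 4 of 8 libraries, at a mean log2 ratio of 0.053. The length used is that of all annotated exons together, 16.6 kb for Dnmt3a and 16.9 kb for Tet2, so genes with long exons that a cell does not use appear lower per length than their main transcript.

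**Figure D1:**
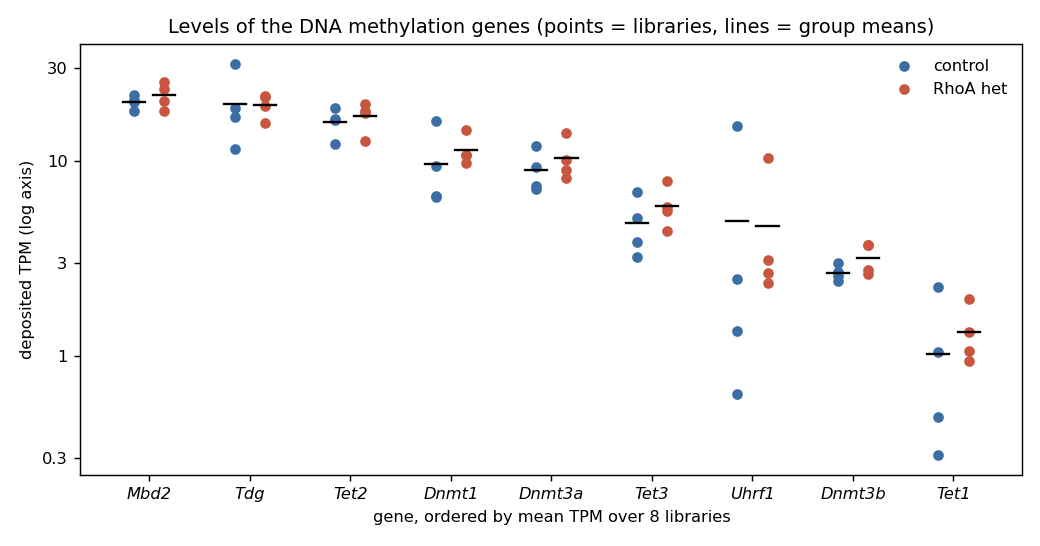
Deposited TPM (log axis) of the 9 DNA methylation genes, ordered by the mean over 8 libraries; blue points are control and red points RhoA het libraries, and lines are group means. Mbd2, Tdg and Tet2 sit highest, Tet1 lowest, and Uhrf1 spans the widest range.

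Within the methyltransferases, Dnmt1 and Dnmt3a took similar parts of the family's summed TPM. Dnmt1 held 43.9% ± 7.73 in control and 46.0% ± 3.64 in RhoA het (SD, n = 4 each), Dnmt3a 42.9% ± 6.42 and 41.1% ± 2.57, and Dnmt3b 13.2% ± 3.43 and 12.9% ± 1.86. Dnmt3a exceeded Dnmt3b in every library, by 2.41-fold to 4.66-fold. Among the TET genes, Tet2 was dominant in all 8 libraries, with 64.0% to 77.5% of the summed TPM, followed by Tet3 with 18.2% to 29.3% and Tet1 with 1.96% to 8.05%. The summed TET level stayed close to the summed DNMT level, at a ratio of 0.86 to 1.21. These shares were not tested between the groups.

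The targeted gene was checked first. Here and below, values per library follow the replicate order 2, 5, 7, 8 for control and 5, 6, 7, 8 for RhoA het. Rhoa counts were 7250, 6656, 7273 and 7102 fragments in control. They were 5379, 5706, 5649 and 5488 in RhoA het. Scaled to CPM (counts divided by TMM library size) the groups overlapped, at 324.6 ± 46.3 and 264.8 ± 14.4 CPM (SD, n = 4 each). The log2 fold change was -0.29 (SE 0.13, edgeR quasi-likelihood test, adjusted p 1.00). Libraries held 19138763 to 25606342 assigned fragments. Stem cell markers were present throughout, with Pax7 at 78.5 to 175.8 CPM and Cdh15 at 127.6 to 244.4 CPM. RhoA het replicate 6 stood apart in the 10 endothelial markers (692 summed CPM, 74.3 to 169.9 in the other libraries). Fragments on 4 Y-linked genes numbered 14358 in control 2 and 14659 in RhoA het 6, and at most 2 in any other library. No marker gene was at 0 in every library.

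None of the DNA methylation genes passed the test for a change with RhoA genotype. In edgeR, 0 of 9 had an adjusted p under 0.05, as had 0 of all 15660 genes (0%) over which p was adjusted. At an unadjusted p under 0.05 the count was 0 of 9, against 2.38% of all genes, and DESeq2 also gave 0 at either threshold among the 8 genes for which it returned a p (0% and 2.22% of all genes). In all 9 genes the CPM ranges of the groups overlapped, as they did in all but 1.81% of genes tested. The fold change was above 0 for 7 of the 9 genes and for 49.9% of all genes, and the median log2 fold change was 0.12 for the 9 genes and -0.00071 for all. In tissue-derived bulk RNA, fewer cells of a kind and less RNA per cell cannot be told apart.

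**Figure D2:**
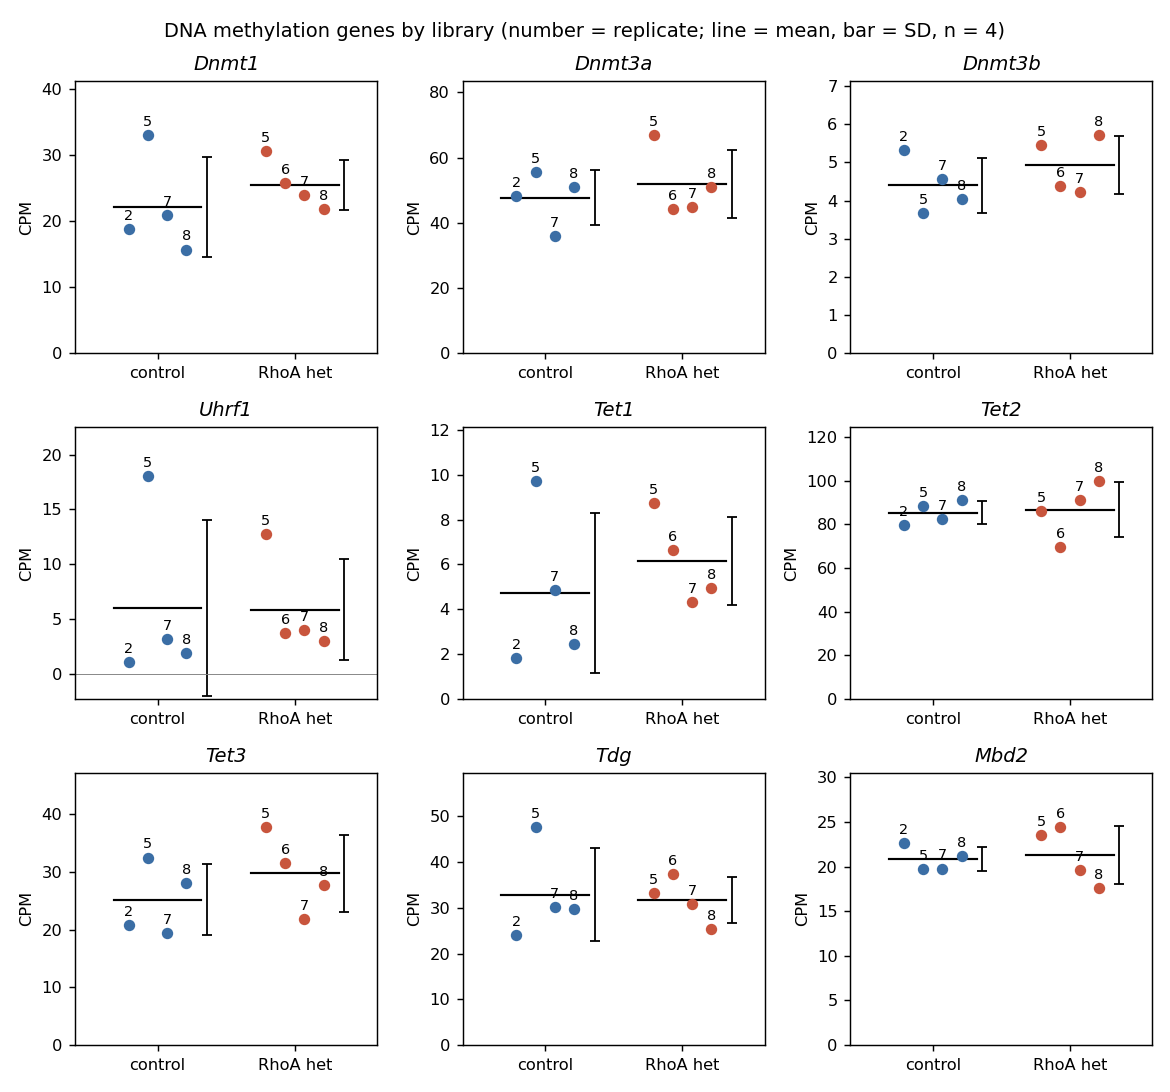
CPM (linear axis) of each DNA methylation gene in the 4 control (blue) and 4 RhoA het (red) libraries, with replicate numbers beside the points, group means as lines and SD as bars. The groups overlap for all 9 genes, and the libraries numbered 5 of both groups are highest for Dnmt1, Dnmt3a, Uhrf1, Tet1 and Tet3.

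The maintenance pair came first by role. Dnmt1 (ENSMUSG00000004099.17, mm39 chromosome 9, 20818505 to 20871184) encodes the maintenance methyltransferase. It stood at 18.9, 33.0, 20.9 and 15.7 CPM in control, and at 30.7, 25.8, 23.9 and 21.8 CPM in RhoA het. Both libraries numbered 5 were the highest, and the remaining RhoA het libraries lay above the remaining control libraries. Over all 8 libraries the log2 fold change was 0.21 (SE 0.23, 95% confidence interval -0.30 to 0.72, adjusted p 1.00 in edgeR) with an exact permutation p of 0.343 (two-sided).

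Uhrf1 (ENSMUSG00000001228.15, mm39 chromosome 17, 56610321 to 56630486), the partner that brings DNMT1 to replicated DNA, varied most of the 9. Its fragments numbered 20, 388, 85 and 40 in control, against 271, 78, 89 and 59 in RhoA het. As CPM these were 1.06, 18.0, 3.19 and 1.88 in control and 12.7, 3.71, 3.99 and 3.03 in RhoA het. The libraries numbered 5 exceeded all others in both groups, and the span from lowest to highest was 17.1-fold. The standard deviation of its log2 CPM was larger than that of 97.5% of all genes tested, compared with 54.4% for Dnmt1. The log2 fold change was -0.042, with an interval of -1.92 to 1.84 that leaves room for a large difference in either direction (adjusted p 1.00 in edgeR, exact permutation p 0.571).

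The de novo enzymes were steadier. Dnmt3a (ENSMUSG00000020661.17, mm39 chromosome 12, 3856007 to 3964443) measured 48.1, 55.7, 35.9 and 51.0 CPM in control, against 66.8, 44.4, 45.0 and 51.0 CPM in RhoA het. RhoA het replicate 5 was highest and control replicate 7 lowest. On the log2 scale RhoA het differed by 0.12 (SE 0.18, interval -0.28 to 0.52, adjusted p 1.00 in edgeR). Dnmt3b (ENSMUSG00000027478.16, mm39 chromosome 2, 153491370 to 153529650) rested on 79 to 122 fragments per library. It measured 5.33, 3.67, 4.57 and 4.04 CPM in control and 5.45, 4.37, 4.21 and 5.71 CPM in RhoA het, a difference of 0.16 on the log2 scale (SE 0.21, interval -0.31 to 0.64). Unlike Dnmt1, Dnmt3b was not raised in the libraries numbered 5, where control replicate 5 had its lowest value.

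Among the TET dioxygenases, the abundant and the scarce member differed in spread. Tet2 (ENSMUSG00000040943.13, mm39 chromosome 3, 133169440 to 133250900) was even, at 79.6, 88.2, 82.4 and 91.3 CPM in control and 86.2, 69.6, 91.3 and 99.7 CPM in RhoA het. Its lowest and highest values were both RhoA het libraries, replicates 6 and 8. The log2 fold change was 0.022 with an interval of -0.27 to 0.31, the narrowest of the 9, and only 9.34% of all genes had a smaller standard deviation. Tet1 (ENSMUSG00000047146.18, mm39 chromosome 10, 62640349 to 62744775) ran from 1.85 to 9.71 CPM, a 5.25-fold span. It measured 1.85, 9.71, 4.87 and 2.44 CPM in control and 8.73, 6.66, 4.35 and 4.94 CPM in RhoA het, again with both libraries numbered 5 on top. The log2 fold change of Tet1 was 0.38 (SE 0.49, interval -0.71 to 1.48, adjusted p 1.00 in edgeR). Tet3 (ENSMUSG00000034832.16, mm39 chromosome 6, 83339355 to 83436066) measured 20.9, 32.5, 19.3 and 28.04 CPM in control and 37.8, 31.6, 21.9 and 27.8 CPM in RhoA het. Its log2 fold change was 0.24 (SE 0.22, interval -0.24 to 0.73). In replicates 5 and 7 it was higher in RhoA het by 0.22 and 0.18 log2 units and in replicate 8 it differed by -0.015.

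Tdg (ENSMUSG00000034674.19, mm39 chromosome 10, 82465662 to 82486633), the glycosylase acting after the TET enzymes, measured 24.03, 47.7, 30.2 and 29.6 CPM in control and 33.2, 37.4, 30.8 and 25.3 CPM in RhoA het. Control replicate 5 was alone at the top, and the log2 difference came to -0.053 (SE 0.22, interval -0.54 to 0.43). A processed copy, Tdg-ps, held 4 to 13 fragments per library, so fragments shared between the copies could be lost from Tdg. Tdg also overlaps exons of Glt8d2 on the opposite strand (75 to 158 fragments), and the counts do not use strand. Dnmt3a and Tet2 overlap opposite-strand genes that held at most 3 fragments. The reader Mbd2 (ENSMUSG00000024513.17, mm39 chromosome 18, 70701260 to 70759202) had the smallest span, 1.39-fold, at 22.6, 19.7, 19.8 and 21.2 CPM in control and 23.6, 24.4, 19.6 and 17.6 CPM in RhoA het. Its log2 fold change was 0.033 (SE 0.14, interval -0.29 to 0.36).

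**Figure D3:**
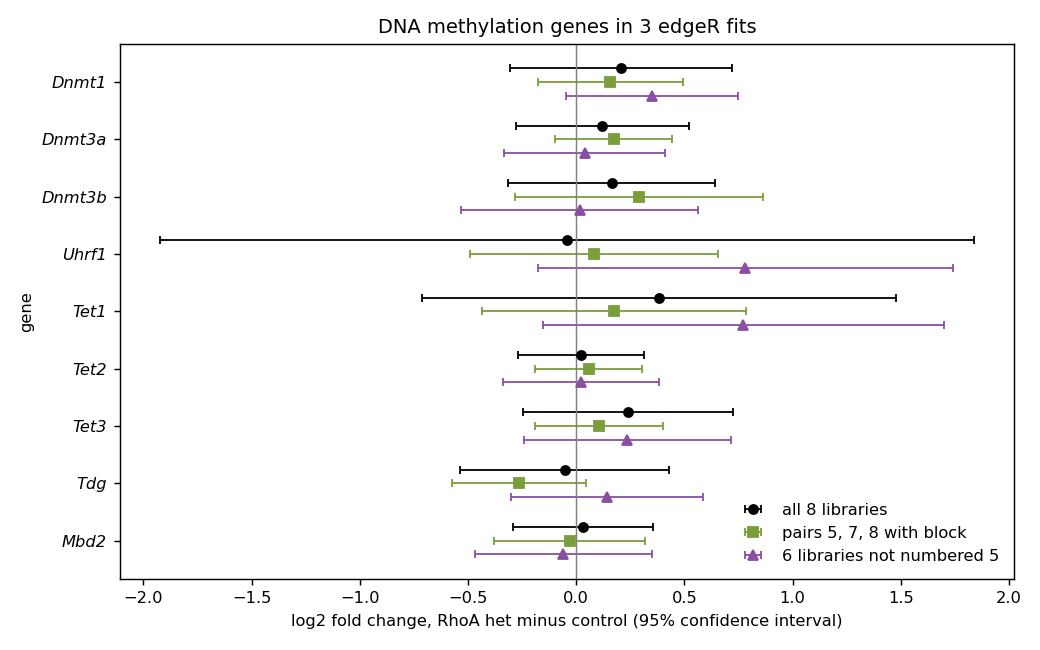
Log2 fold change of RhoA het minus control with its 95% confidence interval for each gene, from edgeR over all 8 libraries (black), over numbers 5, 7 and 8 with the replicate number as a block (green) and over the 6 libraries not numbered 5 (purple). All 27 intervals include 0, and that of Uhrf1 over all 8 libraries, -1.92 to 1.84, is the widest.

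Replicate number 5, which occurs in both groups, marked the highest libraries for several of the genes. Both libraries numbered 5 exceeded the other 6 for Dnmt1, Dnmt3a, Uhrf1, Tet1 and Tet3, which is 5 of 9 genes, compared with 11.3% of all genes tested. Means of the 2 libraries over means of the 6 were 5.47-fold for Uhrf1, 2.20-fold for Tet1, 1.503-fold for Dnmt1, 1.41-fold for Tet3 and 1.33-fold for Dnmt3a. For Mbd2, Tet2 and Dnmt3b these ratios were 1.04, 1.02 and 0.968. Tdg had a ratio of 1.37, but its lower library numbered 5 (33.2 CPM) lay under the highest of the other 6 (37.4 CPM). On the TPM scale Tdg joined the 5 (6 of 9, against 19.1% of all genes). With CPM from total counts the 5 were the same, against 16.8% of all genes. What a replicate number stands for is not given in the labels. The contrast was noticed in the data and has no test.

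Cycling genes stood high in the same libraries. All 20 G2 and M phase genes and 19 of 30 S phase genes, none of them among the 9, were higher in both libraries numbered 5 than in the other 6. Mean log2 CPM of the G2 and M phase list was 4.41 and 3.81 in control and RhoA het replicates 5. In the remaining control libraries (2, 7, 8) it was -0.50, -0.097 and 0.52. The remaining RhoA het libraries (6, 7, 8) had 1.51, 0.71 and 0.99. The S phase list stood at 3.76 and 3.59 in the libraries numbered 5 and between 2.80 and 3.02 in the others. Of the 10 fibro-adipogenic markers, 2 were above all other libraries in both libraries numbered 5, and their summed CPM was 11067 and 9315 there against 2765 to 5426 elsewhere. On the mean log2 CPM scale the fibro-adipogenic list was not highest there, at 6.30 and 6.35 against 5.81 to 7.21 elsewhere. The muscle stem cell list had 3 of 10 genes highest in these libraries, the myofibre list 1 of 12, the Schwann list 1 of 7, and the endothelial, immune, mural and erythroid lists 0. The share over all genes was 11.3%. Summed CPM of the muscle stem cell list was 9310 and 8264 there against 8697 to 15329 elsewhere. Its mean log2 CPM was 8.96 and 8.68 against 8.32 to 8.92. The part of any of these in the levels of the DNA methylation genes was not tested.

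The gene nearest to Uhrf1 was a mitotic one. By Pearson's r of log2 CPM over the 8 libraries, among 15372 genes with a symbol, the nearest patterns to Uhrf1 were Kif11 (0.99), which encodes the mitotic spindle motor Eg5, Mtmr10 (0.99) and Acads (0.98). For Dnmt1 they were Eya1, Deptor and Tbc1d15 (each 0.97), and for Tet1 they were Atad5 (0.97), a regulator of PCNA unloading at replication, Dpf3 (0.97) and Rp2 (0.96). Within the set, Uhrf1, Dnmt1 and Tet1 resembled each other at r of 0.91 to 0.93, and Dnmt3a resembled Tet3 at 0.80. Tdg stood at 0.81 with Uhrf1, 0.77 with Tet1, 0.74 with Dnmt1 and -0.71 with Dnmt3b. Tet2 and Mbd2 ran opposite ways, at -0.79. Arl6ip1, Csnk1g3 and Fstl1 were nearest to Dnmt3a (0.96 to 0.97), Oxct1, Fasn and Cluh to Tet2 (0.96 to 0.97), and Trim47, Cat and Ifngr2 to Tdg (each 0.97). Nova1 was nearest to Dnmt3b (0.96), Creb3l2 to Tet3 (0.96) and Fbxl16 to Mbd2 (0.93). These values are descriptions over 8 points that share replicate numbers, and they were not recomputed without the libraries numbered 5.

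The 2 libraries numbered 5 form a cluster of their own on the cycling scores, so relations were computed within the other 6. There, 18 relations were examined (9 genes by 2 lists), and 0 passed Benjamini-Hochberg adjustment. For Uhrf1 and the G2 and M phase list Pearson's r was 0.70 (exact permutation p 0.128, adjusted 0.46) and Spearman's rho 0.60 (exact permutation p 0.242). Without the 2 libraries farthest from the median score, control replicate 2 and RhoA het replicate 6, r was 0.059, so the relation rests on them. They are also the 2 libraries with many Y-linked fragments (14358 and 14659), and RhoA het replicate 6 is the one high in endothelial markers. Tet1 gave r 0.73 (exact permutation p 0.114) and rho 0.83 (p 0.0583), with r -0.0099 without the same libraries, and Dnmt1 gave r 0.56 (exact permutation p 0.246) and rho 0.77 (p 0.103), with r 0.19. For Tet3 r was 0.84 (exact permutation p 0.0375, adjusted 0.338) and rho 0.77 (p 0.103), and r was 0.73 in the 4 libraries left. With the S phase list these genes showed less. There r was -0.19 for Uhrf1, 0.23 for Dnmt1, 0.13 for Tet1 and 0.23 for Tet3 (exact permutation p 0.639 to 0.792). In the same order rho was -0.26, 0.029, 0.14 and 0.14. The lowest p of r belonged to Tet2 with the S phase list, at r -0.91 (exact permutation p 0.0139, adjusted 0.25) and rho -0.83 (p 0.0583). On the S phase score the 2 farthest libraries are RhoA het replicates 6 and 7, and without them r was -0.94. The lowest p of rho belonged to Mbd2 with the S phase list, at rho 0.89 (exact permutation p 0.0333, adjusted 0.35) and r 0.79 (p 0.0639). Without RhoA het replicates 6 and 7 its r was 0.67. Libraries numbered 7 and 8 occur in both groups here, so the 6 points may not be independent.

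**Figure D4:**
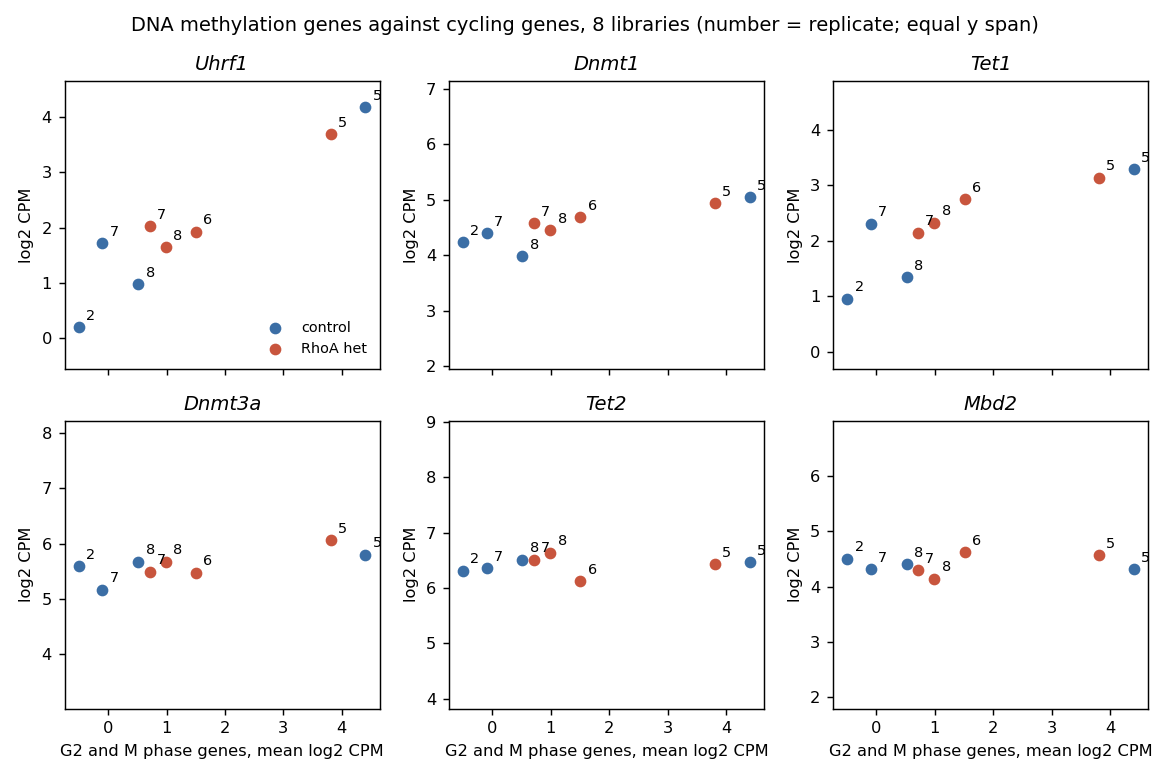
Log2 CPM of 6 DNA methylation genes (y axes of equal span) against the mean log2 CPM of 20 G2 and M phase genes in each library; blue is control, red is RhoA het, and numbers are replicates. The libraries numbered 5 lie far right at 4.41 and 3.81, where Uhrf1 and Tet1 are at their highest while Tet2 and Mbd2 are not.

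Because those libraries stand apart, the genotype comparison was also read without them. In the 3 control and 3 RhoA het libraries left, Dnmt1 was the 1 gene of the 9 that did not overlap, at 15.7 to 20.9 CPM in control and 21.8 to 25.8 CPM in RhoA het. Groups did not overlap in these libraries for 9.8% of all genes, with RhoA het on top for 4.35%. The log2 fold change of Dnmt1 was 0.35 (SE 0.17, interval -0.045 to 0.75, unadjusted p 0.0746 and adjusted p 0.999 in edgeR). Uhrf1 moved to 0.78 (interval -0.18 to 1.74, adjusted p 0.999) and Tet1 to 0.77 (interval -0.15 to 1.70, adjusted p 0.999). None of the 9 had an unadjusted p under 0.05 in this fit, against 3.68% of all genes. Among the cycling genes of these 6 libraries, 19 of 19 G2 and M phase genes tested had a fold change above 0, 6 of them at an unadjusted p under 0.05, with a median log2 fold change of 1.08. That median was -0.25 over all 8 libraries. The S phase list had a median of -0.050, with 13 of 30 above 0. The endothelial list, high in RhoA het replicate 6, had a median of 2.22 here and 1.86 over all 8 libraries. Medians of the immune and erythroid lists were 1.18 and 0.93 here. The myofibre list went from -0.11 over all 8 libraries to 0.56, and the muscle stem cell list stood at 0.076. Whether RNA of cycling cells or of other cell types takes part in the Dnmt1, Uhrf1 and Tet1 values was not tested.

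Leaving out 1 library at a time moved the same 3 genes most. Others moved too, with Tdg from -0.18 to 0.17, Tet3 from 0.10 to 0.38 and Dnmt3a from -0.028 to 0.19. Without control replicate 5, log2 fold changes were 0.45 for Dnmt1, 1.502 for Uhrf1 and 0.99 for Tet1, each with an unadjusted p of 0.0315 to 0.0352 and an adjusted p of 0.999 in edgeR, where 4.36% of all genes had an unadjusted p under 0.05. Values moved the other way without RhoA het replicate 5, with Uhrf1 at -0.76, Tet1 at 0.17 and Dnmt1 at 0.11. Dnmt1 was lowest without control replicate 8, at 0.073, and Tet1 without control replicate 2, at 0.12. Over the 3 shared numbers Uhrf1 was lower in RhoA het for number 5 (-0.50 log2 units) and higher for numbers 7 and 8 (0.32 and 0.66). Dnmt3a was the 1 gene of the 9 higher in 3 of 3 numbers, by 0.26, 0.33 and 0.00090 log2 units, the last of them negligible. With the replicate number as a block, Uhrf1 narrowed to 0.084 (interval -0.49 to 0.66) and Dnmt3a was at 0.17 (interval -0.099 to 0.45). Tdg had the smallest p of the 9 there, at -0.26 (interval -0.57 to 0.046, unadjusted p 0.0879 in edgeR). In that fit 0 of the 9 passed (adjusted p at least 0.931 in edgeR, with 0.0127% of all genes called). At an unadjusted p under 0.05 the block gave 0 of 9 against 5.26% of all genes, and the same 6 libraries with no block 0 of 9 against 1.77%.

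The wider machinery was read through lists of genes. Of 16 other writers and cofactors, 14 passed the filter and 0 changed, with a median log2 fold change of 0.027. Cbx5, which encodes the heterochromatin protein HP1 alpha, was abundant at 93.6 ± 12.8 CPM in control and 99.4 ± 18.1 in RhoA het. The smallest p values in that list belonged to Suv39h1, an H3K9 methyltransferase (-0.16, SE 0.14), Usp7, a deubiquitinase that binds DNMT1 (0.11, SE 0.11), and Setdb1 (0.20, SE 0.20). The 2 genes under the filter, named for that reason, were Dnmt3l, the catalytically inactive relative of the de novo enzymes, with at most 3 fragments in a library, and Dppa3, with at most 5. Of the 14 genes tested here, 4 were higher in both libraries numbered 5 than in all others, against 5 of the 9 genes above and 11.3% of all genes. The lists that follow had 1 of 18 (demethylation and repair), 2 of 12 (CpG readers), 1 of 12 (NuRD partners) and 2 of 19 (methyl donor and 2-oxoglutarate).

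Among 18 other demethylation and repair genes, 0 changed and the median log2 fold change was -0.034. Neil2, a glycosylase of base excision repair, was lower in RhoA het at an unadjusted p of 0.00873 (log2 fold change -1.57, SE 0.48, adjusted p 1.00 in edgeR), from 0.860 ± 0.0972 to 0.286 ± 0.165 CPM (SD, n = 4 each). It rested on 1 to 26 fragments per library. Apex1, the endonuclease that follows the glycosylases, had -0.35 (SE 0.17), and Gadd45g, a stress-responsive gene, 0.39 (SE 0.21). The GADD45 genes were the most abundant of the list per length, at 839.6 TPM for Gadd45b, 494.4 TPM for Gadd45g and 176.2 TPM for Gadd45a.

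The 12 other readers of methylated or unmethylated CpGs had a median log2 fold change of 0.017, and 0 changed. The NuRD partners of MBD2 had a median of -0.12 with 3 of 12 above 0, and 0 changed. Rbbp7, a histone-binding subunit, was the most abundant of them at 952.6 TPM. Mbd3, which occupies the place of MBD2 in a separate form of the complex, had the smallest p of both lists (-0.25, SE 0.15).

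Of 20 genes supplying the methyl donor or 2-oxoglutarate, the cosubstrate of the TET enzymes, 19 were tested and 0 changed, with a median of -0.10. Mat2a, which makes S-adenosylmethionine, stood at 1165 ± 484 and 1046 ± 232 CPM. Ahcy, which clears the inhibitory product of methylation, had the smallest p of the list (-0.24, SE 0.19). Germline genes that are known to depend on promoter methylation for silencing were mostly near the floor in both genotypes. Of 19 such genes, between 10 and 15 had no fragment in a given library. The 2 that passed the filter were Brdt (-0.15, SE 0.30) and Taf7l (-0.054, SE 0.30). Their mean TPM of 3.38 and 3.07 lay above the 2.93 of Dnmt3b, and Brdt alone held 75 to 234 fragments per library. The control libraries held 131 to 327 fragments on the 19 together and the RhoA het libraries 141 to 232.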

How the data were processed

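Values were taken as the authors deposited them, as fragment counts and as TPM. Per the file headers, counts came from featureCounts 1.6.4, run with its paired-end flag on the exons of GENCODE mouse release 34 on mm39, with no strand option. The submitters' processing notes also name cutadapt, STAR and DESeq2. The deposited TPM equalled counts per gene length scaled per library, within 5e-15. Of the 10 alignments named in the header, the 8 libraries in the table were used. Gene symbols came from a GENCODE identifier table that named 51884 genes. Groups and replicate numbers came from the titles.

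Genes passing filterByExpr were scaled by TMM and tested with edgeR's quasi-likelihood test (edgeR 4.0.16, R 4.3.3), adjusted by Benjamini-Hochberg at 0.05. Log2 CPM used a prior count of 2. Exact permutation tests between the groups used the 70 assignments of libraries (smallest p 0.0286). The members and lists were chosen with earlier results of these data known. Named genes were the 9, Rhoa, up to 3 genes per list by p and by TPM, and 3 nearest patterns per gene. Deviations of same-numbered libraries from their group means correlated at 0.544, 0.231 and 0.488 for numbers 5, 7 and 8, all above 0.1. The numbers were therefore used as pairs in the replicate block and in the differences within each number. The main fit, its intervals and the exact permutation tests between the groups were unpaired. Alternatives were DESeq2 1.42.0, limma 3.58.1 on log2(TPM + 1) and log2(TPM + 0.1), other scalings and filters, the replicate block and left-out libraries. Scripts were tested on simulated data.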

Additional observations from a re-analysis of the deposited data

Results flagged for a closer look

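Libraries were examined for standing apart within their group of 4 by Dixon's ratio, the gap to the nearest library over the whole range, against its 95% critical value. Among 24 such checks, over the 9 genes, Rhoa and both cycling lists in each group, 1 passed, where chance gives about 1.2. The S phase genes were high in control replicate 5, with a ratio of 0.895 (mean log2 CPM 3.76, next highest control library 2.95). Uhrf1 in RhoA het replicate 5 came close, at 0.811.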

How the results depend on the processing

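Over 162 alternative values for the 9 genes, 0 passed an adjusted p of 0.05 (lowest 0.854), 139 kept their direction and 23 reversed. Dnmt1, Dnmt3b, Tet1 and Tet3 kept theirs in all 18 alternatives each, though their sizes moved. Leaving out 1 library gave 0.073 to 0.45 for Dnmt1, 0.072 to 0.26 for Dnmt3b, 0.12 to 0.99 for Tet1 and 0.10 to 0.38 for Tet3. Dnmt3b was 0.016 without both libraries numbered 5. In limma on log2(TPM + 1) Uhrf1 was 0.35 and Tdg 0.055, and on log2(TPM + 0.1) they were 0.61 and 0.062. With the replicate block over numbers 5, 7 and 8, Uhrf1 was 0.084 and Mbd2 -0.030, and 2 genes of the whole table were called, neither among the 9. In the same 6 libraries with no replicate block Mbd2 was -0.021 and 0 genes were called. Without both libraries numbered 5, Uhrf1 was 0.78, Tdg 0.14 and Mbd2 -0.059. Leaving out each library in turn gave -0.028 to 0.19 for Dnmt3a, -0.76 to 1.502 for Uhrf1, -0.053 to 0.11 for Tet2, -0.18 to 0.17 for Tdg and -0.041 to 0.11 for Mbd2. DESeq2 returned no p for Uhrf1. The causes were not tested. Rhoa kept its direction throughout, the order of mean TPM held without any library, and 0 cycling relations passed under either alternative. The lowest count among the 9 genes was 20 fragments, for Uhrf1 in control replicate 2.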
